A study of Homo sapiens with 6 samples.

Results

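Polyamine metabolism was examined through 10 genes, of 25969 genes measured: ODC1, AMD1, SRM and SMS for synthesis, AZIN1, OAZ1 and OAZ2 for control of ODC1 protein, and SAT1, SMOX and PAOX for catabolism. The genes were taken as a list of polyamine enzymes and regulators, and the list was selected on the measured fold change of ODC1 between the groups compared here, which was above 2. That difference is therefore described below and not tested. RNA sequencing was done on 6 libraries of cells labelled LNCaP, a human prostate cancer line from a lymph node metastasis. In 3 of them the cells carried a VIM-AS1 overexpression plasmid (genotype VIM-AS1 overexpressed). VIM-AS1 is a long noncoding RNA transcribed antisense to VIM, the vimentin gene. In the other 3, with the genotype WT, the cells were transfected with pcDNA3.1 (a mammalian expression plasmid), and they are called controls. The question addressed is which transcripts change when VIM-AS1 is raised. The labels name no clone, promoter, dose or time after transfection. They also do not say if replicates were cultured separately, so the p-values cover the spread between 3 libraries per group, and that spread could be technical.

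Polyamines are small positively charged molecules that bind nucleic acids and that dividing cells need. Ornithine decarboxylase, encoded by ODC1, makes putrescine from ornithine, and spermidine synthase (SRM) and spermine synthase (SMS) extend it with aminopropyl groups that S-adenosylmethionine decarboxylase (AMD1) prepares. Antizymes (OAZ1, OAZ2) bind the ODC1 protein and send it to the proteasome, and their synthesis depends on a ribosomal frameshift that polyamines stimulate. The antizyme inhibitor AZIN1 resembles the ODC1 protein and captures antizyme. SAT1 acetylates spermidine and spermine, PAOX oxidizes the acetylated forms and SMOX oxidizes spermine directly. Prostate epithelium is known for its high polyamine synthesis.

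The 6 libraries held 14762893 to 19889745 reads. Values are normalized reads, namely read counts divided by 1 factor per library. The libraries differed by more than their group. VIM-AS1 itself was at 2197, 2019 and 2763 normalized reads in the VIM-AS1 libraries, against 8.63, 1.22 and 5.53 in the controls. Replicate 3 of both groups differed from replicates 1 and 2, and it did so in the same direction in both groups for 88.2% of 13175 genes with a mean of at least 20. Mitochondrially encoded transcripts took 5.57% to 7.06% of reads in the VIM-AS1 libraries and 8.73% to 14.3% in the controls. Markers of the labelled line were in part missing. KLK3, which encodes prostate-specific antigen, was at 0 in all 3 VIM-AS1 libraries and at 1.92, 0 and 0 in the controls. FOLH1, the prostate-specific membrane antigen gene, was at 0 in the VIM-AS1 libraries and at 3.84, 2.44 and 0 in the controls. The sum of the 7 luminal markers was 68070 to 121660 in VIM-AS1 libraries and 75741 to 138711 in controls, nearly all of it KRT8 and KRT18. The data therefore go against LNCaP in 2 of its defining genes, and the cells are named here by their label only. Of 4 fibroblast markers COL1A1 and PDGFRB fell, with COL1A2 and LUM at or near 0 and a list sum of 1655 to 2452 in the VIM-AS1 libraries and 2520 to 3501 in the controls. Of 3 prostate basal markers TP63 fell (list sum 4.90 to 17.9 in VIM-AS1 libraries, 24.9 to 40.3 in controls), with KRT5 at or near 0. KRT14 did not pass, at 7.37, 1.96 and 2.05 in VIM-AS1 libraries and 7.67, 8.55 and 1.58 in controls. Of 3 endothelial markers VWF rose (list sum 64.5 to 108.8 in VIM-AS1 libraries, 33.2 to 64.7 in controls), with PECAM1 at or near 0. CDH5 did not pass, at 14.7, 11.8 and 11.3 in VIM-AS1 libraries and 16.3, 15.9 and 5.53 in controls. The part of the mitochondrial share and of these markers in the results below was not tested.

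"Rose" and "fell" stand here for an adjusted p under 0.05 in limma, fitted across 20927 genes with a term for the third libraries. That term was chosen with their deviation known, so its p-values may be too small. Without the term limma called 0.0239% of tested genes and none of the 9 genes other than ODC1, with 0 of the 9 and 2854 of all tested genes at an unadjusted p under 0.05. Neither edgeR nor DESeq2 without the term called any of the 9. With the term 11.5% of tested genes rose and 7.94% fell. Among the 9758 tested genes with a mean of at least 100, where all of the 10 but PAOX lie, 23% rose and 9% fell. With each replicate number as a block, 15.8% of tested genes rose and 10.8% fell. The block was likewise taken up with the correlations between these libraries known, so its p-values may also be too small.

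ODC1 (ENSG00000115758, chromosome 2, 10439968 to 10448504 on the minus strand, GRCh38) was higher in every VIM-AS1 library than in any control. It was at 5607, 6375 and 5358 normalized reads in VIM-AS1 replicates 1 to 3, against 2447, 2605 and 2016 in control replicates 1 to 3. The lowest VIM-AS1 library was thus above the highest control, and in both groups replicate 2 was highest and replicate 3 lowest. The means were 5780 ± 530.2 and 2356 ± 304.5 (SD, n = 3 each), a fold of 2.45, and the log2 difference was 1.30 ± 0.21 (SE, no term). It was 1.24 in replicates 1 and 2 and 1.41 in replicate 3. ODC1 was chosen for this difference. In this bulk RNA, a change in the number of cells of a type and a change of RNA per cell cannot be told apart. Among the other 9 genes the next largest fold upward was 1.55, that of SRM, so ODC1 alone lay past the 2-fold that chose the list. The lowest fold was 0.505, that of PAOX, which had 5 to 24 reads per library. A log2 difference above 1 was found in 3.09% of tested genes.

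**Figure D1:**
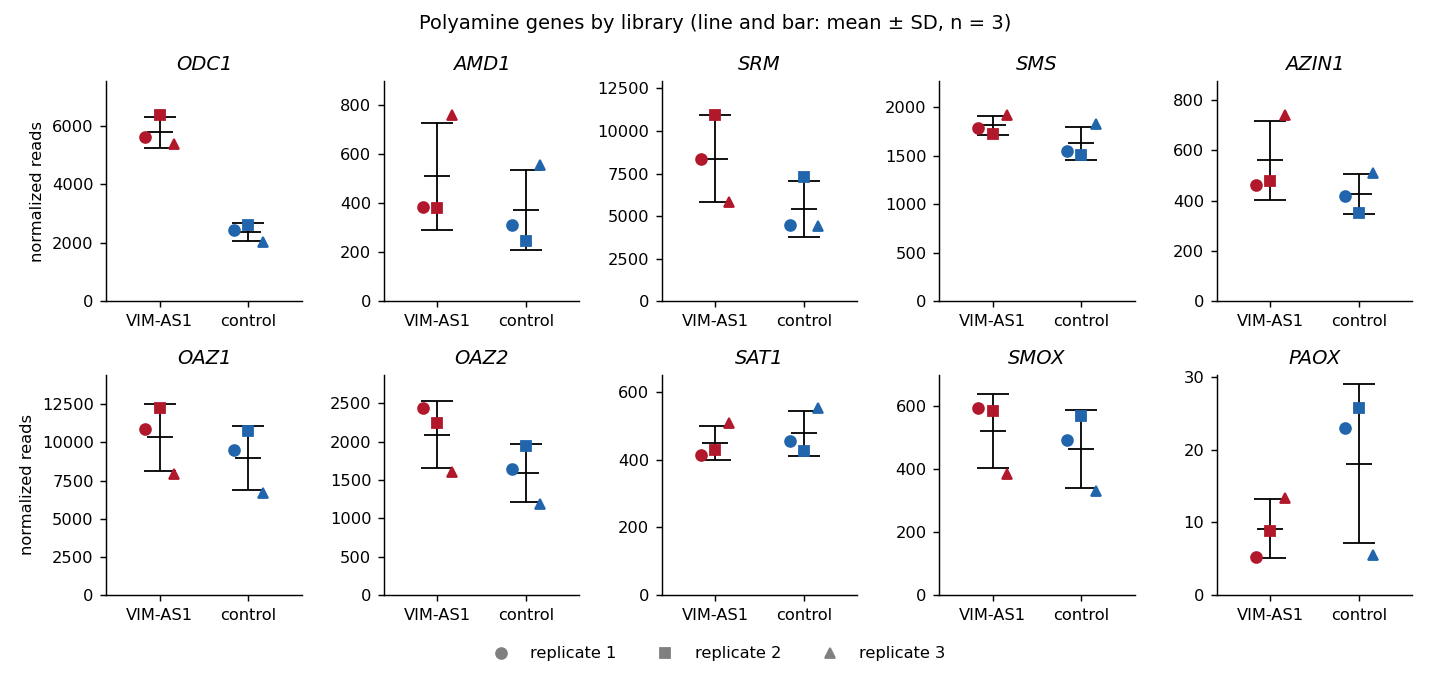
Normalized reads (vertical axes, linear, from 0, on a scale of its own for each gene) of the 10 polyamine genes in the 3 VIM-AS1 libraries (red, left) and 3 controls (blue, right), with shapes for the replicate number and lines for the mean ± SD. ODC1 is the one gene whose VIM-AS1 libraries, 5358 to 6375, all lie above the controls, 2016 to 2605, while AMD1 and AZIN1 are highest in replicate 3 of both groups.

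Of the 3 other synthesis genes, SRM and AMD1 rose and SMS did not pass. SRM (ENSG00000116649) lies on chromosome 1 at 11054584 to 11060024, minus strand, AMD1 (ENSG00000123505) on chromosome 6 at 110874770 to 110895713, plus strand, and SMS (ENSG00000102172) on the X chromosome at 21940573 to 21994835, plus strand. SRM stood at 8340, 10963 and 5834 normalized reads in the VIM-AS1 libraries and at 4475, 7316 and 4435 in the controls. The second control was above the third VIM-AS1 library, so the groups overlapped, yet each VIM-AS1 library exceeded the control of its number. The log2 difference of SRM was 0.63 ± 0.15 (SE, with the term; limma adjusted p = 0.00665, and 0.380 without the term), with 0.74 in replicates 1 and 2 and 0.40 in replicate 3. AMD1, whose product supplies the aminopropyl donor, had 385.6, 380.1 and 760.3 normalized reads in the VIM-AS1 libraries against 309.8, 246.8 and 556.0 in the controls. The third control was above the first and second VIM-AS1 libraries, and the third library was the highest of both groups. The log2 difference of AMD1 was 0.46 ± 0.12 (limma with the term, adjusted p = 0.0115, and 0.617 without), at 0.47 in replicates 1 and 2 and 0.45 in replicate 3. Processed pseudogenes of AMD1 and SRM could share reads with their parents, but those measured here (AMD1P3, AMD1P4 and SRMP2) had means of 0.802, 0.501 and 0.320 normalized reads. SMS, at 1790, 1727 and 1925 in the VIM-AS1 libraries against 1548, 1512 and 1825 in the controls, had a log2 difference of 0.16 ± 0.10 (limma with the term, adjusted p = 0.293). Each VIM-AS1 library was above the control of its number, while the third control was above the first and second VIM-AS1 libraries.

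The bases upstream of ODC1, SRM and AMD1 are shown as those of the 3 synthesis genes with the largest differences. They come from the 250 bases before each gene's start in RefSeq (GRCh38.p14), 5′ to 3′ on the gene's strand, and end where the gene begins in GENCODE 29: chr2:10448505-10448577 (minus), chr1:11060025-11060268 (minus) and chr6:110874535-110874769 (plus). Capitals mark the GC box GGGCGG and the E-box CACGTG on either strand, with no overlap between matches.
ODC1: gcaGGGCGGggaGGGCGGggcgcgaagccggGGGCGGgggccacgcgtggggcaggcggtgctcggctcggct
SRM: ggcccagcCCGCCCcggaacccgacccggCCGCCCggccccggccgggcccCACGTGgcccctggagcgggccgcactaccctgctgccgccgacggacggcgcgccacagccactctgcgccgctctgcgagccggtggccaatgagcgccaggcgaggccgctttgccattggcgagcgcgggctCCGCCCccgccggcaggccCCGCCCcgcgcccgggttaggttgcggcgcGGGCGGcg
AMD1: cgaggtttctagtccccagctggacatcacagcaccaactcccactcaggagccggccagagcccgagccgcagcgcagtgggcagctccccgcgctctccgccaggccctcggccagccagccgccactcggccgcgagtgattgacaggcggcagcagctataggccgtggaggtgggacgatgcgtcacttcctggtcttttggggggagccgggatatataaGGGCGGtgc
The 250-base window of ODC1 held 4 GC boxes, 3 of them in the 73 bases printed. That of SRM held 6, with 5 of them in the 244 bases printed, and that of AMD1 held 1. The windows of OAZ1 (2), SMS (1) and OAZ2 (1) held GC boxes too, which makes 6 of 7 members with a promoter sequence. At least 1 GC box was found in such a window for 42.6% of 35116 RefSeq promoters. SRM alone among the 7 members with a promoter sequence (ODC1, AMD1, SRM, SMS, OAZ1, OAZ2, SAT1) held an E-box, the sequence that MYC and MAX bind, 199 bases before its start, and 6.34% of all promoters held one. Bases beyond these 250-base windows, introns after the start included, were not searched, so E-boxes there would be missed. Neither TATAAA, found in 10.7% of promoters, nor the cAMP response element TGACGTCA, found in 1.65%, was matched in these 7 windows on either strand. Only these exact letters were searched, so a near match, such as tatataa just before the GC box of AMD1, was not counted. The CCAAT sequence, in 32% of all promoters, was matched in 4 of the 7. GC made up 78.8% of the ODC1 window, 82.0% of that of SRM and 67.2% of that of AMD1.

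Of the genes that control ODC1 protein, AZIN1 and OAZ2 rose and OAZ1 did not pass. AZIN1 (ENSG00000155096) lies on chromosome 8, OAZ1 (ENSG00000104904) on chromosome 19 at 2269509 to 2273490, plus strand, and OAZ2 (ENSG00000180304) on chromosome 15 at 64687573 to 64703281, minus strand. AZIN1, the inhibitor of antizyme, was at 460.4, 479.1 and 741.9 normalized reads in the VIM-AS1 libraries and at 417.3, 350.6 and 511.0 in the controls. The third control was above the first and second VIM-AS1 libraries. Its log2 difference was 0.38 ± 0.12 (limma with the term, adjusted p = 0.0315, and 0.565 without), with 0.30 in replicates 1 and 2 and 0.54 in replicate 3. OAZ2 was at 2431, 2235 and 1606 in the VIM-AS1 libraries and at 1648, 1944 and 1190 in the controls, with the third library lowest in both groups. Its log2 difference was 0.40 ± 0.10 (limma with the term, adjusted p = 0.00985, and 0.527 without), with 0.38 in replicates 1 and 2 and 0.43 in replicate 3. OAZ1, the main antizyme, was at 10881, 12219 and 7927 in the VIM-AS1 libraries against 9527, 10757 and 6663 in the controls, a log2 difference of 0.21 ± 0.11 (limma with the term, adjusted p = 0.225). Each VIM-AS1 library lay above its control by 0.18 to 0.25 on the log2 scale, within the spread of either group. AZIN1 shares 344 bp of exon with AZIN1-AS1 on the opposite strand, OAZ1 236 bp with JSRP1 and OAZ2 554 bp with AC100830.3, and without a stated strand setting reads from these parts cannot be assigned with certainty. The means of AZIN1-AS1 and JSRP1 were 15.8 and 9.41 normalized reads. On the same strand OAZ1 shares 220 bp of exon with AC005258.1 and PAOX 158 bp with AL360181.3, which a strand setting would not resolve. AC005258.1 and AL360181.3 were not among the measured genes.

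None of the 3 catabolic genes passed. SAT1 (ENSG00000130066) lies on the X chromosome at 23783173 to 23786226, SMOX (ENSG00000088826) on chromosome 20 at 4120980 to 4187747 and PAOX (ENSG00000148832) on chromosome 10 at 133379234 to 133391694, all on the plus strand. SAT1, the acetyltransferase, was at 415.1, 428.2 and 507.6 normalized reads in the VIM-AS1 libraries and 456.6, 425.2 and 551.3 in the controls. Its groups overlapped throughout, and the log2 difference was -0.08 ± 0.11 (limma with the term, adjusted p = 0.677). SMOX, the spermine oxidase, was at 592.1, 583.0 and 383.7 in the VIM-AS1 libraries against 491.1, 569.3 and 329.4 in the controls, with a log2 difference of 0.17 ± 0.12 (limma with the term, adjusted p = 0.329). Each SMOX value was above that of its control, and the third library was lowest in both groups. PAOX, which oxidizes acetylated polyamines, had 5, 9 and 13 reads in the VIM-AS1 libraries against 24, 21 and 7 in the controls. The first and second VIM-AS1 libraries were lower than their controls and the third was higher, so that its log2 difference was -1.69 in replicates 1 and 2 and 1.13 in replicate 3 (-0.75 ± 0.54 over all, limma with the term, adjusted p = 0.375).

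**Figure D2:**
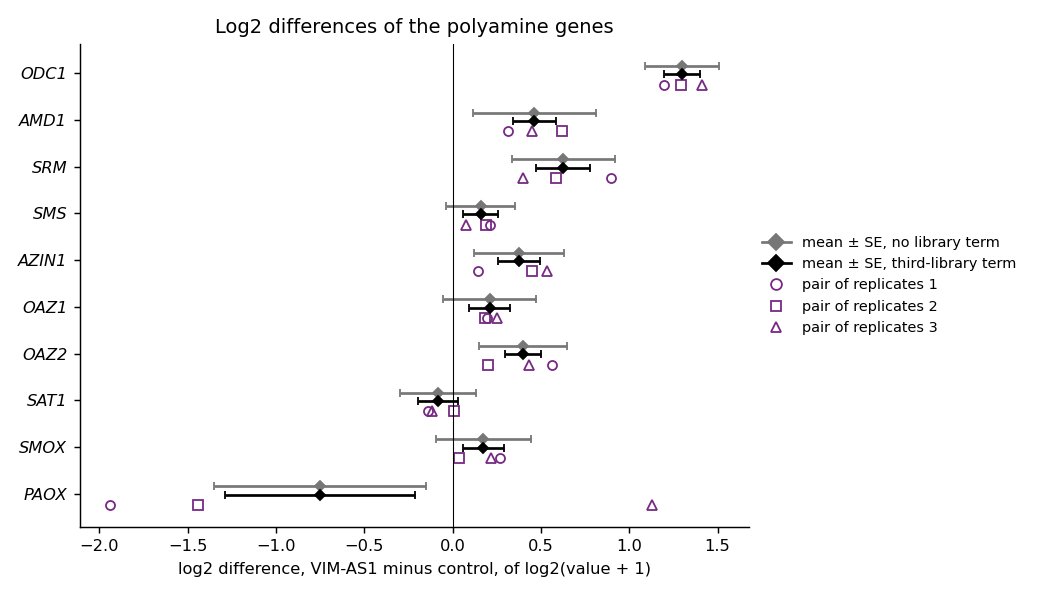
Log2 difference of log2(value + 1) between VIM-AS1 libraries and controls (horizontal axis) for each gene, as the mean ± SE from limma without (grey) and with (black) a term for the third libraries, and for each pair of libraries with the same replicate number (open symbols). ODC1 lies at 1.20 to 1.41 in all 3 pairs. SRM, AMD1, AZIN1 and OAZ2 lie above 0 in all 3, as do SMS, OAZ1 and SMOX, which did not pass. SAT1 and PAOX lie on both sides of 0.

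As a set, 4 of the 9 genes other than ODC1 rose and none fell, beside 11.5% and 7.94% of all tested genes and 23% and 9% of those with a mean of at least 100. The 9 had a median log2 difference of 0.21, beside -0.02 over all tested genes. Over the 14183 genes with at least 10 reads in every library of either group the median was 0.03. With the replicate block the same 4 were called, with adjusted p of 7.00e-06 for SRM, 0.00107 for AMD1, 0.00582 for AZIN1 and 0.000596 for OAZ2 (limma). Like those with the term, these p-values may be too small. VIM-AS1 libraries were above their controls in all 3 pairs for 7 of the 9, against 26.8% of all tested genes, and below in all 3 pairs for none, against 25%. No median or share of pairs was taken for genes with a mean of at least 100, which rose more often than they fell. The groups did not overlap for ODC1 alone of the 10, whereas 9.5% of tested genes had all VIM-AS1 libraries above all controls and 10.3% all below. All 10 passed the filter on low values. Without VIM-AS1 replicate 3 or without control replicate 3 none of the 4 passed, while their log2 differences were 0.74 for SRM, 0.47 for AMD1, 0.30 for AZIN1 and 0.38 for OAZ2. With the term, the third library that remains is fitted exactly. Here and below, both settings therefore give the differences of replicates 1 and 2 alone and are not separate checks of single libraries. Over all tested genes the calls also dropped, to 141 higher and 139 lower without VIM-AS1 replicate 3 and to 127 higher and 109 lower without control replicate 3, against 2403 higher and 1662 lower with all libraries. For the 4 genes, the highest adjusted p over the single libraries left out was 0.157 for SRM, 0.164 for AMD1, 0.309 for AZIN1 and 0.175 for OAZ2 (limma with the term). AMD1 and AZIN1 also lost the call without VIM-AS1 replicate 1, VIM-AS1 replicate 2 or control replicate 2, SRM without VIM-AS1 replicate 2, and OAZ2 without VIM-AS1 replicate 1. Scaling by library size alone moved the median of all tested genes to -0.08 and ended the calls of AMD1 (adjusted p = 0.0896) and AZIN1 (0.147) in limma with the term. DESeq2 with the term did not call SRM (adjusted p = 0.161).

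Of the 10 genes, 9 deviated in the same direction in the third library of both groups. The third library of AMD1 was above the mean of the first and second by 0.99 log2 units in VIM-AS1 libraries and 1.01 in controls. That of AZIN1 was above it by 0.66 in VIM-AS1 libraries and 0.42 in controls. OAZ1 was lower there, at -0.54 in VIM-AS1 libraries and -0.60 in controls, as was SMOX at -0.61 in VIM-AS1 libraries and -0.68 in controls. ODC1 stood at -0.16 in VIM-AS1 libraries and -0.32 in controls, shifts far smaller than its difference of 1.30 between the groups. PAOX moved in opposite directions, at 0.87 in VIM-AS1 libraries and -1.95 in controls.

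**Figure D3:**
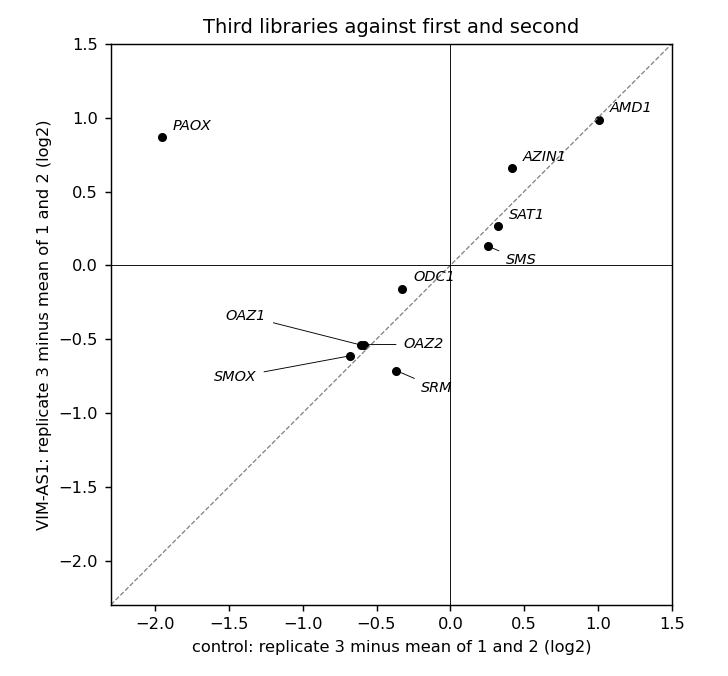
Difference of replicate 3 from the mean of replicates 1 and 2 on the log2 scale, in the VIM-AS1 libraries (vertical axis) against the controls (horizontal axis), with 1 point per gene and the dashed line marking equal differences. All genes but PAOX lie in the quadrants of equal sign, from AMD1 (0.99 in VIM-AS1 libraries, 1.01 in controls) to SMOX (-0.61 in VIM-AS1 libraries, -0.68 in controls).

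Levels between genes are compared as normalized reads per kb of exon in GENCODE 29. In the VIM-AS1 libraries SRM had the highest level, 4415 ± 1351 per kb (SD, n = 3), followed by OAZ1 at 3010 ± 639.1, ODC1 at 1947 ± 178.7 and SMS at 839.8 ± 46.7. In the controls the order was the same, with SRM at 2850 ± 870.2, OAZ1 at 2614 ± 611.4, ODC1 at 793.8 ± 102.6 and SMS at 753.9 ± 79.1. The ranges of SRM and OAZ1 overlapped in both groups. ODC1 and SMS overlapped in the controls, with 679.4 to 877.6 for ODC1 and 700.2 to 844.7 for SMS, but not in the VIM-AS1 libraries, where the lowest ODC1 level was 1805 and the highest SMS level 891.1. In the VIM-AS1 libraries OAZ2 stood at 272.5 per kb, SAT1 at 180.3, SMOX at 176.4, AZIN1 at 87.2, AMD1 at 72.4 and PAOX at 4.01. In the controls OAZ2 stood at 207.8, SAT1 at 191.2, SMOX at 157.3, AZIN1 at 66.3, AMD1 at 52.8 and PAOX at 7.94. The ranges of SAT1 and SMOX, and those of AZIN1 and AMD1, overlapped in both groups, and those of OAZ2 and SAT1 in the controls. These levels per kb do not correct for the third libraries.

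**Figure D4:**
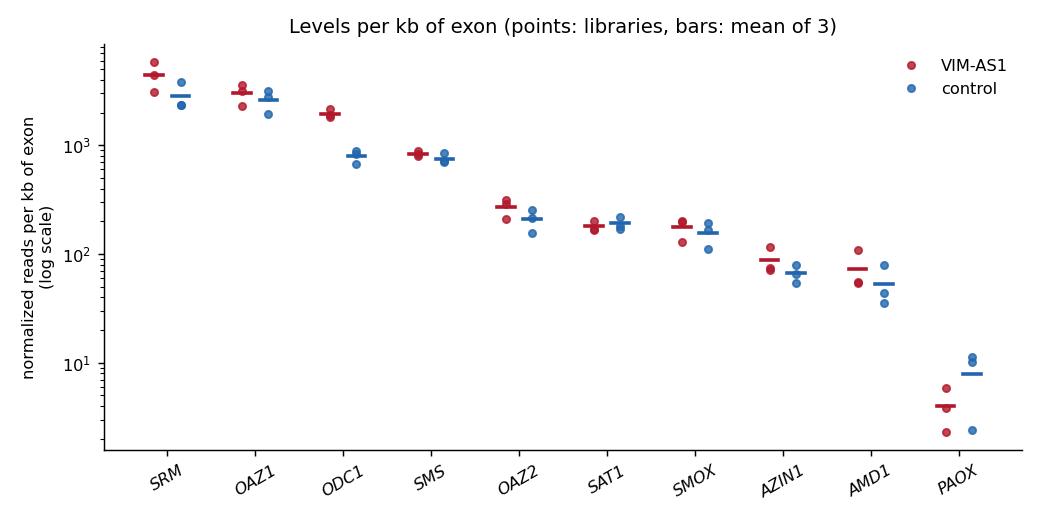
Normalized reads per kb of exon (vertical axis, log scale) of the 10 genes in VIM-AS1 libraries (red, left) and controls (blue, right), with points for libraries and bars for the mean of 3. ODC1 sits next to SMS in the controls, at 793.8 and 753.9, and above it in the VIM-AS1 libraries, at 1947 and 839.8.

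A wider set of 44 genes that supply, move or use polyamines was listed in 5 groups, and 40 of them passed the filter. Of these 40, 12 rose and 2 fell with the term, none passed without it, with 8 at an unadjusted p under 0.05, and their median log2 difference was 0.30. Over all tested genes 11.5% rose and 7.94% fell, 2854 of 20927 were at an unadjusted p under 0.05 without the term and the median was -0.02, and at a mean of 100 or more 23% rose and 9% fell. The median was 0.03 over genes with at least 10 reads in every library of either group, and none was taken at a mean of 100 or more. With the replicate block 18 of the 40 rose and 3 fell, beside 15.8% and 10.8% of all tested genes. No share with the block was taken at a mean of 100 or more, here or below, where calls with the term were more frequent. Arginine and ornithine supply had 6 of 13 higher and none lower with the term, and 6 higher and 1 lower with the replicate block. The gene added by the block was ASS1, argininosuccinate synthase, which acts just before ASL and is named here after its values were seen. ASS1 was at 105222, 111769 and 73214 normalized reads in the VIM-AS1 libraries against 145006, 160394 and 100969 in the controls, lower in all 3 pairs. Its log2 difference was -0.48 ± 0.19 (limma with the term, adjusted p = 0.0865, and 0.00572 with the replicate block), and library size scaling, edgeR and DESeq2 with the term called it lower too. SLC25A15, the mitochondrial ornithine carrier, was at 374.0, 327.2 and 318.2 normalized reads in the VIM-AS1 libraries and at 142.9, 164.9 and 120.1 in the controls, with no overlap. Its log2 difference was 1.25 ± 0.14 (limma with the term, adjusted p = 8.55e-06, and 0.0729 without). AGMAT, a mitochondrial member of the agmatinase family, was at 688.0, 696.6 and 580.2 in the VIM-AS1 libraries against 394.2, 332.3 and 214.8 in the controls (log2 difference 1.10 ± 0.13, adjusted p = 1.21e-05 in limma with the term). ASL, argininosuccinate lyase, which releases arginine, was at 779.6, 874.9 and 476.9 in the VIM-AS1 libraries against 490.2, 459.4 and 249.6 in the controls, with the first control above the third VIM-AS1 library. Its log2 difference was 0.84 ± 0.11 (limma with the term, adjusted p = 4.86e-05). SLC25A15, AGMAT and ASL kept their calls without any single library. Without VIM-AS1 replicate 3 or control replicate 3 the calls among the 40 numbered 4, and without VIM-AS1 replicate 2 they numbered 8, against 14 with all 6 libraries. Calls over all tested genes dropped under the same settings, as given above for the third libraries, and to 1395 higher and 1055 lower without VIM-AS1 replicate 2.

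In the methionine cycle and the salvage of methylthioadenosine, the by-product of spermidine and spermine synthesis, 2 of 11 genes rose and none fell, a share between the 11.5% of all tested genes and the 23% of those with a mean of at least 100 that rose. With the replicate block 6 of the 11 rose, beside 15.8% of all tested genes, with no such share taken at a mean of at least 100. ADI1, the dioxygenase of that salvage, was at 1539, 1612 and 1398 in the VIM-AS1 libraries and at 681.1, 834.4 and 712.4 in the controls, with no overlap (log2 difference 1.03 ± 0.11, adjusted p = 3.33e-06 in limma with the term). MRI1, the isomerase that follows MTAP, rose by 0.58 ± 0.11 on the log2 scale (limma with the term, adjusted p = 0.00076) and lost the call without either of the third libraries. MTAP, the phosphorylase that takes up methylthioadenosine, did not pass, at -0.28 ± 0.13 (adjusted p = 0.173), nor did MAT2A, which makes S-adenosylmethionine, at 0.16 ± 0.10 (0.308). Of the 4 hypusine genes, by which spermidine is built into the translation factor EIF5A, EIF5A (0.42 ± 0.14, adjusted p = 0.0355) and the hydroxylase DOHH (0.44 ± 0.12, adjusted p = 0.0106) rose. That stands beside 11.5% of all tested genes and 23% of those with a mean of at least 100. The deoxyhypusine synthase DHPS did not pass, at 32.7, 42.1 and 26.6 in the VIM-AS1 libraries and 80.6, 33.0 and 40.3 in the controls (-0.50 ± 0.32, adjusted p = 0.302). EIF5A and DOHH lost the call without VIM-AS1 replicate 2 or either of the third libraries, and EIF5A also without VIM-AS1 replicate 1 or control replicate 2.

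Of 8 genes for transport, ATP13A2, which exports polyamines from lysosomes, rose by 0.39 ± 0.13 on the log2 scale (limma with the term, adjusted p = 0.0404), a call lost without any one library other than control replicate 2. It was the 1 gene of the 8 that rose, near the 11.5% of all tested genes. With the replicate block 3 of the 8 rose, beside 15.8% of all tested genes. Of 4 other antizyme and polyamine enzyme genes 1 rose and 2 fell, beside 11.5% and 7.94% of all tested genes. At a mean of at least 100, 23% rose and 9% fell. AZIN2, a relative of AZIN1, fell to 44.2, 59.8 and 28.7 in the VIM-AS1 libraries, against 84.4, 77.0 and 78.2 in the controls (log2 difference -0.90 ± 0.25, adjusted p = 0.0145 in limma with the term), with no overlap. SAT2, a relative of SAT1 whose known substrate is not spermidine or spermine but thialysine, fell to 365.6, 358.6 and 226.1 in the VIM-AS1 libraries, against 612.9, 584.0 and 358.6 in the controls, with overlap (-0.70 ± 0.12, adjusted p = 0.000303 in limma with the term). ALDH9A1, an aldehyde dehydrogenase of the route by which putrescine yields GABA, rose (0.41 ± 0.11, adjusted p = 0.00899), and OAZ3, the testis antizyme, did not pass (0.09 ± 0.37, adjusted p = 0.909). AZIN2 lost the call without VIM-AS1 replicate 1 or either of the third libraries, and SAT2 and ALDH9A1 without either of the third libraries.

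**Figure D5:**
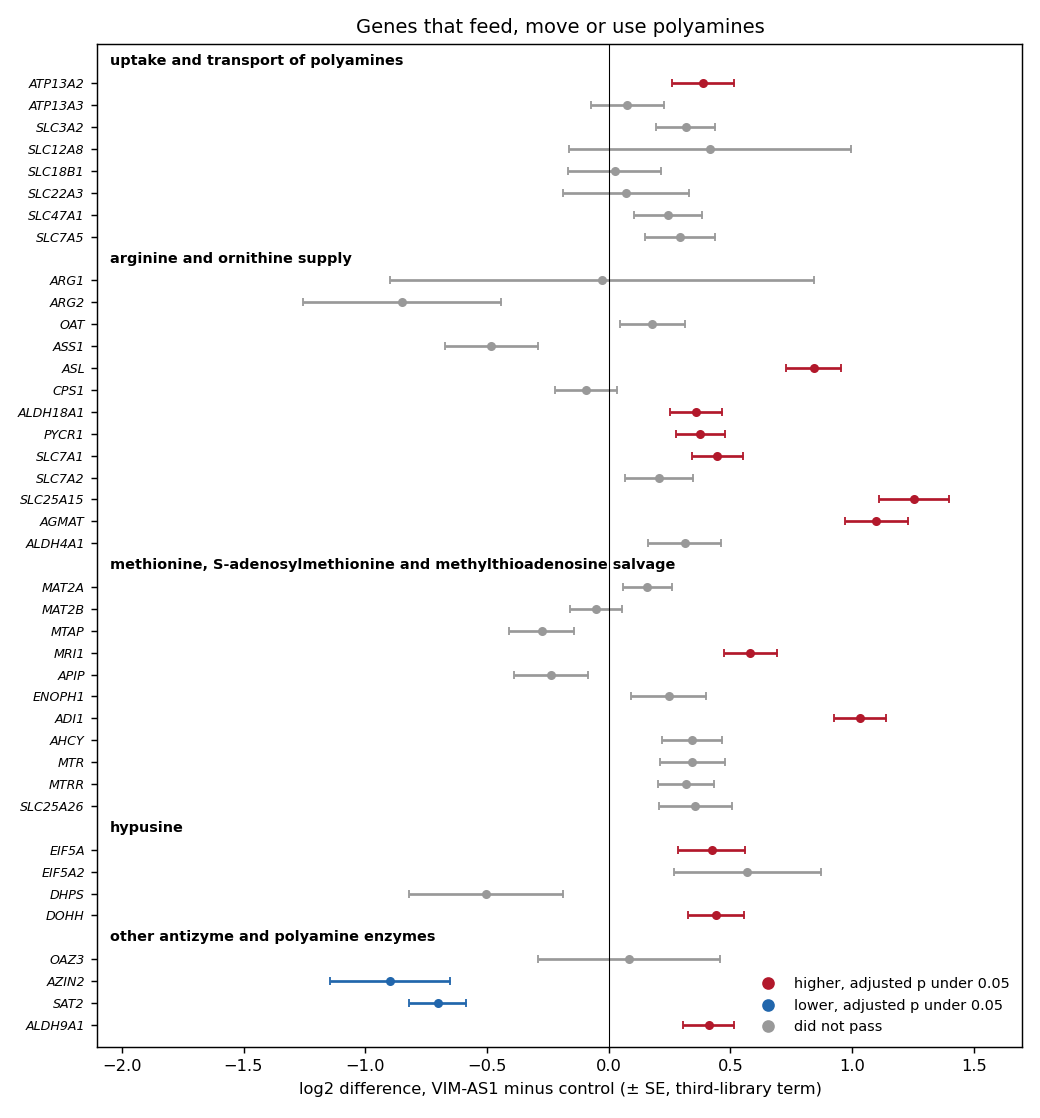
Log2 difference between VIM-AS1 libraries and controls (horizontal axis, ± SE, limma with the third-library term) of the 40 tested genes that supply, move or use polyamines, by group, with red for genes that rose, blue for genes that fell and grey for genes that did not pass. SLC25A15 (1.25), AGMAT (1.10) and ADI1 (1.03) lie farthest to the right, and AZIN2 (-0.90) and SAT2 (-0.70) are the genes that fell.

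The genes with the pattern most like ODC1 over the 6 libraries, among 9757 other genes with a mean of at least 100, were RAN, AFAP1, KIRREL1, ZMAT2 and ILF2, with a Pearson r of 0.998 to 0.999 on log2(value + 1). The r is a description over 6 libraries that share their 2 groups. RAN, a small GTPase of nuclear transport, was at 14679, 15558 and 14213 normalized reads in the VIM-AS1 libraries and at 10716, 11133 and 10047 in the controls. Its fold of means was 1.39, against 2.45 for ODC1. Like ODC1, RAN was highest in replicate 2 and lowest in replicate 3 of both groups. Of the polyamine genes SRM came closest to ODC1 (r = 0.77), followed by OAZ2 (0.71), OAZ1 (0.52), SMS (0.47), SMOX and AZIN1 (both 0.43) and AMD1 (0.27), whereas SAT1 was at -0.44. The order changed with the shift of the third libraries removed, where OAZ2 was at 0.93, AMD1 and AZIN1 at 0.90, SMS at 0.88, OAZ1 at 0.87, SMOX at 0.83, SRM at 0.81 and SAT1 at -0.77.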

How the data were processed

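RNA sequencing libraries of human cells were made with the NEBNext Ultra RNA kit from total RNA, per the labels' protocols, and the reads went through fastp, HISAT2 (hg38) and featureCounts, per the submitters' processing notes. For versions, annotation, strand setting and the normalizing step, the sources used here give nothing. The deposited signal of each library is a read count per gene divided by 1 factor: multiplying by it gave whole reads, within 0.01 read, for 100% of 25969 genes, and the factors (0.819 to 1.27) equal DESeq2 size factors of the recovered reads. A count of 0 allows up to 3 reads, or 2.37 to 3.67 normalized reads, which covers counting error only.

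Tests used limma 3.58.1 (R 4.3.3) with an intensity trend on log2(value + 1), over the 20927 genes with a mean of at least 1, two-sided, with Benjamini-Hochberg adjustment over all of them at 0.05. Log2 differences are on that scale, which understates the change of low genes. Fits had either no library term or a term for replicate 3 of both groups. Both were run on simulated data in which the third libraries of both groups had the same shift. Data built in that way cannot show if the term suits these libraries or if its p-values are too small. Deviations of same-numbered libraries from their group means correlated at 0.32, 0.72 and 0.84 over 13175 genes, so the numbers from the labels were taken to pair the libraries and a fit with the replicate number as a block is printed where it changes a call. VIM-AS1 replicate 1 correlated more with control replicate 2 (0.42) than with its own number. Control replicate 1 correlated at 0.33 with VIM-AS1 replicate 2 and at 0.32 with VIM-AS1 replicate 1, so the pairing of the first libraries is weak.

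Alternatives were TMM and library size scaling, a pseudocount of 0.1, other filters, edgeR 4.0.16 and DESeq2 1.42.0 on the recovered reads, each library left out, and replicates 1 and 2 or replicate 3 alone. The members and all lists, the wider set and its named genes included, were chosen with earlier results of these data known. Named were all 10 members, up to 3 called genes per wider group by size of difference, 8 genes in every case (AZIN2, OAZ3, SAT2, MAT2A, MTAP, EIF5A, DHPS, DOHH) and the 5 genes most like ODC1. Positions and exon lengths came from GENCODE 29, and promoters from RefSeq. Of 22 marker genes 17 were analysed, and KLK2, TMPRSS2, PTPRC, CD3E and LYZ were not analysed here. The level of 1 other marker is not reported here. Of 47 wider genes 44 were analysed.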

Additional observations from a re-analysis of the deposited data

How the results depend on the processing

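Counts of the 10 genes include ODC1, whose fold change chose the list, so its calls are no test and a count of 1 means none of the other 9. Without a library term 0 of the 10 genes were called, 1 with library size scaling, with DESeq2 and with replicates 1 and 2 alone, and 5 with the replicate block. With the third-library term 5 were called, 3 with library size scaling, 1 with replicates 1 and 2 alone, and 1 to 5 when single libraries were left out. Of the 40 wider genes 14 were called with the term, 5 in replicates 1 and 2 alone, 4 to 18 when single libraries were left out and 21 with the replicate block. None of the 5 genes most like ODC1 was among the 5 closest once the shift of the third libraries was removed (0 shared). The first 5 still had an r of 0.998 to 0.999 then, against 0.9995 to 0.9999 for the 5 closest. The difference of ODC1 kept its direction under all settings run. PAOX turned to 1.13 in replicate 3 alone in both fits. Without a term and with single libraries left out, SAT1 ranged from -0.17 to 0.026, SMOX from -0.053 to 0.38 and OAZ3 from -0.077 to 0.37. With the term OAZ3 ranged from -0.12 to 0.35, and in replicates 1 and 2 alone it was -0.012 in both fits. The cause of these changes was not tested. The replicate block changed the calls named here and in the report and no other call among the 10 genes. PAOX had 5 to 24 reads per library.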
